A study of Mus musculus with 6 samples.

Results

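The 10 genes described here are immediate-early response genes, namely Fos, Fosb, Jun, Junb, Egr1, Atf3, Ier2, Dusp1, Nr4a1 and Zfp36. They were taken by gene symbol from the 34099 genes of the deposited count matrices, and all 10 were found. The list was drawn up with earlier results of these data known and was selected on levels that lead tumor cluster 5, so levels across clusters and cell types are given as a description with no test. Immediate-early genes are silent or low in resting cells and are transcribed within minutes of a signal, without new protein synthesis, after kinases modify transcription factors that already sit on their promoters. Most of their transcripts are short-lived. In liver they are known for their response to growth factors, partial hepatectomy and injury, and in any solid tissue they can also be induced while the tissue is being taken apart into single cells.

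By role, Fos, Fosb, Jun and Junb encode subunits of AP-1, a transcription factor built from a Fos protein and a Jun protein or from a pair of Jun proteins. Atf3 encodes a related leucine zipper factor that responds to cell stress, Egr1 a zinc finger transcription factor, and Nr4a1 an orphan nuclear receptor. Ier2 encodes a nuclear protein of the early growth factor response. Dusp1 and Zfp36 act as brakes, Dusp1 as a phosphatase that inactivates MAP kinases and Zfp36 as an RNA-binding protein that speeds the decay of AU-rich messenger RNAs.

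Liver tumors of 3 control mice and 3 stress mice were taken apart into cells and each mouse gave 1 library of the 10x Genomics single-cell system. All 6 were wild type male C57BL/6J mice with H22 tumors, a murine hepatocellular carcinoma line implanted into the liver. The stress mice went through chronic unpredictable mild stress, and the control mice received the same tumor cells without stressors. Cells are those that the authors annotated into 10 cell types and numbered clusters, 29638 of them as tumor cells.

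Between 149558935 and 187728350 unique molecular identifiers (UMIs, tags that count each captured RNA molecule once) were counted per mouse, with a median of 7166 to 20478 per cell. Pairs of libraries shared 14 to 43 cell barcodes, 0.180% to 0.431% of the smaller library. All control libraries had been counted with Cell Ranger 9.0.0 and all stress libraries with 7.1.0 (matrix headers), so the effects of program version and of stress cannot be told apart below. Of the 6 tumor cell markers examined, Krt18, Cldn6 and Afp were highest in tumor cells. All endothelial, natural killer and T (NK/T) and B cell markers examined were highest in the cell type so named, and none of the 3 markers (Arg1, Ly6c2, Vegfa) of monocytic myeloid-derived suppressor cells (M-MDSCs) was highest in the cells so named. For inflammatory myeloid cells, Il1r2, Acod1 and Cxcr2 were highest there. Their markers S100a8 and S100a9 were higher in neutrophils (65384 and 91115 UMIs per 1000000, against 7496 and 14282.5). Clec9a, a dendritic cell marker, was highest in endothelial cells, the monocyte marker Ly6c2 in neutrophils and the neutrophil marker Mpo in B cells. The median M-MDSC had 27447.5 UMIs, against 27716 in tumor cells, and its 6 tumor markers summed to 652 to 921 UMIs per 1000000, against 749 to 1044 in tumor cells. The name M-MDSC is used below only as the annotation gives it.

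The genes are compact. The 10 members had a median of 3 exons (range 1 to 8) and a median span of 4698.5 bases. Over the 14698 genes with a coding transcript that were tested in tumor cells, the medians were 9 exons and 24570.5 bases. AUUUA, the core of the AU-rich elements that mark short-lived messengers, occurred in the 3′ untranslated region of 9 of the 10 members and of 66.5% of the 14698 genes. The longer form UAUUUAU occurred in 6 of 10 members and in 28.2% of the 14698 genes. Ier2 was the member without either. On GRCm38, Fos lies at chr12:85473890-85477273 (plus strand), Ier2 at chr8:84661331-84662852 (minus strand) and Fosb at chr7:19302696-19310051 (minus strand). Jun overlaps the antisense gene Junos, Junb overlaps Prdx2, Zfp36 overlaps Gm44710, Atf3 overlaps Gm24748 and Dusp1 overlaps 4 genes including Ergic1. The overlaps were taken by position on either strand, and whether any UMIs belong to a neighbour was not tested.

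Promoters of Fos and Fosb are shown because these paralogs parted between control and stress mice, and those of Junb and Atf3 because they too were not called lower in tumor cells. Each is the 250 bases before the RefSeq start site (GRCm38.p6), 5′ to 3′ on the strand of the gene, with capitals for the cyclic AMP response element half-site TGACG, the TATA box TATAAA and the EGR site GCGNGGGCG on either strand.
Fos (chr12:85473640-85473889, plus strand): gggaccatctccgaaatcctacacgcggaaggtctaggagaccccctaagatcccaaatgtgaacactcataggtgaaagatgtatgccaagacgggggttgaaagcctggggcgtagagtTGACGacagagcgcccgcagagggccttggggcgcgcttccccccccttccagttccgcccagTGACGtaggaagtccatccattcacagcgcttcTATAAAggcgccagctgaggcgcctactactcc
Fosb (chr7:19310046-19310295, minus strand): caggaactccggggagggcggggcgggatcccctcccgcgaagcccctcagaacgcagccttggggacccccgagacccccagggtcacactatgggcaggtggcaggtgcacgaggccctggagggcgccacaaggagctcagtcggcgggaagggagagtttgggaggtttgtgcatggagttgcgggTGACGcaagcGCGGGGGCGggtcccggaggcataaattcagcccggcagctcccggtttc
Junb (chr8:84978749-84978998, minus strand): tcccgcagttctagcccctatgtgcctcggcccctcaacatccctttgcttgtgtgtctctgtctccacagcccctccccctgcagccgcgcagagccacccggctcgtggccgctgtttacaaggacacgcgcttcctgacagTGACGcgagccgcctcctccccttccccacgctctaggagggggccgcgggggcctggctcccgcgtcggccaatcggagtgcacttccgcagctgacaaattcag
Atf3 (chr1:191183334-191183583, minus strand): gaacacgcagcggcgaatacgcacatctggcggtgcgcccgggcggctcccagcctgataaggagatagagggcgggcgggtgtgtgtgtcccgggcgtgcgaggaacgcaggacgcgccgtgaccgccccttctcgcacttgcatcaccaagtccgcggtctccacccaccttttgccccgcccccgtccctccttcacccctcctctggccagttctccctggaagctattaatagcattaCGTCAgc

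RefSeq promoters were searched for 8 of the 10 members. Egr1 was left out of the search, and Ier2 had no promoter entry. Of the members called lower in tumor cells, only Fos was thus among the 8. TGACG lay in 6 of the 8, against 17.7% of 32817 promoter windows of the same length. The Fos window held it at 2 places and the Fosb window at 1, 60 to 56 bases before the start. TATAAA was found in the Fos window only, 33 to 28 bases before the start, and in 12.4% of all windows. EGR sites were in the windows of Fosb, Nr4a1 and Zfp36, 3 of 8, against 4.70% of all windows. The full element TGACGTCA, which contains TGACG on both strands, was in the Dusp1 window and in 1.55% of all windows, and the CArG box was in the Zfp36 window and in 1.47%. No member window held the AP-1 site TGANTCA, found in 6.75% of all windows.

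Levels are given as CPM, the UMIs of a gene per 1000000 UMIs of the summed cells of a cell type in a mouse, and no gene is ranked against another. Together the 10 genes were highest in inflammatory myeloid cells, with a summed level of 15945 ± 4687 (SD) CPM over 6 mice, and lowest in B cells. This cell type led for Jun, Junb, Egr1, Ier2, Dusp1, Nr4a1 and Zfp36. Hepatic stellate cells (HSCs), 128 cells in all, had the highest mean of Fos, Fosb and Atf3. Their Fos was highest in control mice 2 and 3. It ranged from 940 to 2476 CPM over mice and overlapped the 773 to 2014 CPM of inflammatory myeloid cells. Their Atf3 mean (527 ± 544 CPM) rested on control mice 2 and 3 (1092 and 1348 CPM, from 6 and 8 cells), the other 4 mice lying at 137 to 227 CPM, below the 332 to 661 CPM of inflammatory myeloid cells. For Junb, the gap between inflammatory myeloid cells (lowest mouse 3454 CPM) and monocytes (highest mouse 2854 CPM) exceeded the spread over mice. Neighbouring cell types in the order of Fos, Fosb, Jun, Egr1, Ier2 and Dusp1 overlapped over mice throughout.

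Nr4a1 and Zfp36 set myeloid cells apart from tumor cells. Nr4a1 ranged from 380.2 ± 157 CPM (SD, n = 6) in inflammatory myeloid cells and 336 ± 116 in monocytes to 24.0 ± 5.23 in endothelial cells (ECs) and 19.1 ± 2.67 in tumor cells. ECs lay below M-MDSCs, the next cell type up, in every mouse. Zfp36 ranged from 1611 ± 453 CPM in inflammatory myeloid cells to 74.0 ± 23.9 in tumor cells, with B cells (213 ± 48.1) above NK/T cells (109 ± 34.2) without overlap. Atf3 was at 507 ± 137 CPM in inflammatory myeloid cells and 73.3 ± 14.7 in NK/T cells, and ECs (177 ± 18.6) lay above B cells (103 ± 22.7) without overlap. Tumor cells were thus the cell type with the least Nr4a1 and Zfp36.

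**Figure D1:**
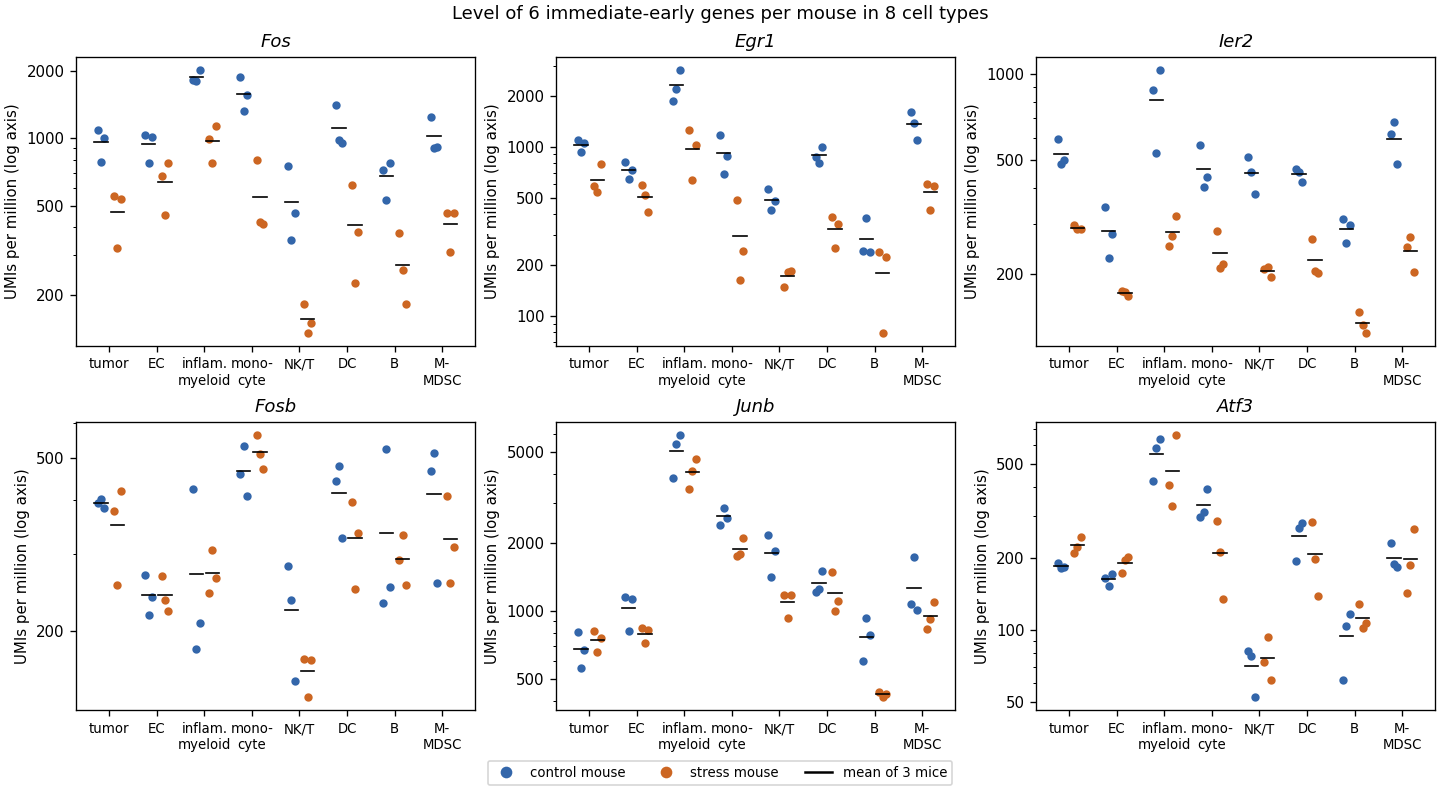
UMIs per 1000000 (log axis) of Fos, Egr1, Ier2, Fosb, Junb and Atf3 in 8 cell types, with 1 point per mouse and bars for the mean of 3 mice. In the upper row all 3 stress mice lie below all 3 control mice in each of the 8 cell types, whereas Fosb overlaps in all 8 on this scale (on the TMM scale Fos in inflammatory myeloid cells overlaps and Fosb in tumor cells separates).

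In tumor cells, 3 of the 10 genes fell in stress mice, Fos, Egr1 and Ier2, where 9.46% of all 18856 genes tested were called lower. The other AP-1 genes and the brakes did not pass the test. Fos was at 1086, 786 and 999 CPM in control mice 1, 2 and 3 and at 552, 325 and 534 CPM in stress mice 1, 2 and 3. Egr1 was at 1101, 935 and 1056 CPM in the control mice, set against 583, 538 and 796 CPM in the stress mice. Ier2 was at 594, 485 and 503 CPM in the control mice, set against 298, 288 and 287 CPM in the stress mice. For each of these genes every stress mouse lay below every control mouse, and the stress mice were tightest for Ier2. The UMI sums of the mice were compared by the quasi-likelihood test of edgeR over all genes, and p-values were adjusted by the Benjamini-Hochberg method (threshold 0.05). It gave a log2 fold change of -1.0 ± 0.11 (SE, adjusted p = 0.00414) for Ier2, -0.83 ± 0.16 (adjusted p = 0.0140) for Egr1 and -1.16 ± 0.24 (adjusted p = 0.0170) for Fos.

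Fosb, the close relative of Fos, was at 393, 401 and 383 CPM in control mice 1, 2 and 3 and at 378, 255 and 419 CPM in stress mice 1, 2 and 3, with stress mouse 2 below the rest (edgeR, log2 fold change -0.30 ± 0.18 (SE), adjusted p = 0.281). Junb overlapped between the groups, with 805, 559 and 674 CPM against 813, 662 and 759 CPM (log2 fold change -0.01 ± 0.17). Jun likewise overlapped, with 364, 219 and 324 CPM against 300.0, 299 and 235 CPM. Atf3 was the member that lay higher in every stress mouse, 192, 183 and 184 CPM against 212, 223 and 245 CPM, where 28.1% of genes did so on the CPM scale, and its difference did not pass the test (edgeR, log2 fold change 0.14 ± 0.08 (SE), adjusted p = 0.257). Among the brakes, Dusp1 varied widely within the control mice, 367, 149 and 305 CPM, and stood at 251, 159 and 133 CPM in the stress mice (log2 fold change -0.73 ± 0.37). Zfp36 overlapped too, 103, 43.9 and 91.8 CPM against 79.1, 46.8 and 79.8 CPM, with control mouse 2 and stress mouse 2 the lowest of their groups. Nr4a1 was at 22.6, 19.5 and 18.3 CPM against 14.5, 20.5 and 19.3 CPM and overlapped on this scale (adjusted p = 0.134 in edgeR).

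The summed level of the 10 genes in tumor cells was 4449 ± 629 CPM (SD, n = 3) in control mice and 3269 ± 391 in stress mice. The median log2 fold change of the members was -0.33, beside -0.01 over all genes tested. On the CPM scale 3 members lay lower in every stress mouse, where 10.1% of genes did. Scaling by TMM, the library scaling edgeR uses, shifted all genes by -0.14 (log2) in tumor cells. With it Fosb and Nr4a1 also separated, 5 members, beside 20.3% of genes. The call of Ier2 held whichever mouse was left out. Fos was lost without control mouse 1, control mouse 3 or stress mouse 3, and Egr1 without control mouse 3, with adjusted p up to 0.0605 for Fos and 0.0551 for Egr1. Without control mouse 2, which had the lowest Jun and Dusp1 of its group, these genes were called too, 5 members in all, beside 14.6% of genes called lower in that fit. When each cell weighed the same, 1 member, Ier2, was called, beside 1.62% of genes called lower. Mitochondrial UMIs made up 3.71% to 4.70% of the UMIs of tumor cells in control mice and 5.41% to 5.72% in stress mice, and their part in these differences was not tested.

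Fos, Egr1 and Ier2 were also called lower in NK/T cells, dendritic cells (DCs) and M-MDSCs, where 0.322%, 0.513% and 0.254% of all genes were. In NK/T cells, Fos was at 748, 349.8 and 461 CPM in control mice 1, 2 and 3 and at 181, 135 and 149 CPM in stress mice 1, 2 and 3. Egr1 was at 562, 421 and 479 CPM against 149, 181 and 186 CPM there, and Ier2 at 515, 454 and 382 CPM against 208, 213 and 196 CPM. The groups were far apart for all 3 genes, with control mouse 1 the highest for each. The edgeR log2 fold changes were -1.65 ± 0.25 for Fos (adjusted p = 0.00820), -1.42 ± 0.16 for Egr1 (adjusted p = 0.000860) and -1.05 ± 0.15 for Ier2 (adjusted p = 0.00493), and all 3 calls held when any mouse was left out. Without control mouse 2, Dusp1 was called too, beside 0.477% of genes called lower. Jun, Junb and Dusp1 also lay lower in every stress mouse, which makes 6 members beside 13.3% of genes. With TMM-scaled CPM, Jun and Dusp1 overlapped, leaving 4 beside 9.95% of genes. Tumor markers in NK/T cells summed to 120.2 to 402 CPM and overlapped between the groups.

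In DCs, Egr1 was at 874, 804 and 1002 CPM in control mice 1, 2 and 3, set against 383, 251 and 349 CPM in stress mice 1, 2 and 3. Fos was at 1404, 979 and 948 CPM against 618, 226 and 383 CPM, and Ier2 at 465, 454 and 421 CPM against 265, 205 and 202 CPM. For all 3 genes stress mouse 1 was the highest stress mouse, still below every control mouse. The edgeR test gave -1.34 ± 0.18 for Egr1 (adjusted p = 0.00405), -0.89 ± 0.16 for Ier2 (adjusted p = 0.0127) and -1.33 ± 0.30 for Fos (adjusted p = 0.0399). Dusp1, the MAP kinase phosphatase, was also lower in every stress mouse (883, 574 and 793 CPM against 505, 295 and 342 CPM, adjusted p = 0.0637 in edgeR), which makes 4 members beside 17.1% of genes. TMM scaling shifted all genes in DCs by 0.11 (log2) and left these 4 members, beside 10.5% of genes on that scale. Without control mouse 1 or without stress mouse 3 only Egr1 was called, beside 0.131% and 0.0719% of genes called lower. Without control mouse 3 or stress mouse 2 the call of Fos was lost, beside 0.181% and 0.634% of genes called lower. Without control mouse 2 or stress mouse 1 Dusp1 was called too, beside 1.13% and 0.172% of genes called lower. DESeq2 called Egr1, Ier2 and Dusp1 but not Fos (log2 fold change -1.32, adjusted p = 0.0803), and 0.840% of genes lower. When each cell weighed the same, Egr1 and Dusp1 were called, the only 2 genes called lower in that fit, while Fos stood at -1.68 (adjusted p = 0.0779 in limma) and Ier2 at -0.93 (adjusted p = 0.183 in limma). In the DCs of cluster 20 alone (777 cells) edgeR called 0 members and 0.157% of genes lower, with log2 fold changes of -1.58 ± 0.58 for Egr1 (adjusted p = 0.273), -1.52 ± 0.40 for Fos (adjusted p = 0.131) and -1.13 ± 0.25 for Ier2 (adjusted p = 0.0830). In these cells 7 members lay lower in every stress mouse on the TMM scale, beside 10.3% of genes. Of the control DCs, cluster 20 held 20 of 79 (mouse 1), 109 of 269 (mouse 2) and 41 of 158 (mouse 3). Of the stress DCs it held 71 of 141, 350 of 553 and 186 of 356 in the same order, a larger share in each. The part of this mix in the fit over all DCs was not tested. Tumor markers in DCs summed to 338 to 589 CPM and overlapped between the groups.

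In M-MDSCs, 350 cells of which control mouse 1 gave 15, Egr1 was at 1611, 1389 and 1099 CPM in control mice 1, 2 and 3, set against 604, 426 and 588 CPM in stress mice 1, 2 and 3. Fos was at 1248, 902 and 912 CPM against 462, 311 and 462 CPM, and Ier2 at 619, 678 and 483 CPM against 249, 270.5 and 204 CPM. This cell type carried the tumor markers at nearly the level of tumor cells, and their part was not tested. The edgeR log2 fold changes were -1.31 ± 0.20 for Fos (adjusted p = 0.00908), -1.34 ± 0.19 for Egr1 (adjusted p = 0.00502) and -1.30 ± 0.17 for Ier2 (adjusted p = 0.00261). Jun was also lower in every stress mouse, which makes 4 members beside 7.33% of genes. Nr4a1 was higher in every stress mouse, 51.6, 56.6 and 33.1 CPM against 62.3, 74.0 and 95.4 CPM (adjusted p = 0.293 in edgeR), as were 7.64% of genes. Fos lost its call without control mouse 1 (adjusted p = 0.0536). When each cell weighed the same no member and 0% of genes were called lower, with log2 fold changes of -1.53 for Fos, -1.74 for Egr1 and -1.86 for Ier2 (adjusted p from 0.168 to 0.236 in limma).

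Monocytes had the most members that lay lower in every stress mouse, 8 of 10, beside 11.2% of genes. Fos was at 1868, 1323 and 1554 CPM in control mice 1, 2 and 3, set against 799, 421 and 414 CPM in stress mice 1, 2 and 3. Egr1 was at 1168, 694 and 878 CPM against 484, 163 and 243 CPM, and Dusp1 at 2471, 2159 and 2612 CPM against 1385, 952 and 1186 CPM. Fosb and Jun were the members that overlapped, Fosb with 457, 532 and 407 CPM against 564, 509 and 470.0 CPM. No member passed the edgeR test, although the log2 fold changes reached -1.58 ± 0.39 for Egr1 (adjusted p = 0.212) and -1.49 ± 0.29 for Fos (adjusted p = 0.138). At an unadjusted p under 0.05 there were 8 members, beside 12.0% of all genes, and after adjustment 0.0163% of all genes were called lower. Deviations of monocytes from the group means correlated between mice of the same replicate number at 0.476, 0.422 and 0.146 for numbers 1, 2 and 3. Stress mouse 3, however, correlated better with control mouse 2 (0.187). With the replicate number as a block, edgeR called 5 members lower, Fos, Egr1, Ier2, Dusp1 and Nr4a1, with adjusted p from 0.0184 to 0.0270, where 0.726% of genes were called. DESeq2 without the block called these same 5, where it called 0.470% of genes lower. Hepatocyte markers summed to 0.399 to 2.23 CPM in monocytes of control mice and 10.3 to 20.7 CPM in those of stress mice, and their part was not tested.

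In ECs Fos, Egr1 and Ier2 lay lower in every stress mouse, with smaller log2 fold changes than in NK/T cells, DCs and M-MDSCs, a difference that was not tested. Fos was at 1031, 775 and 1011 CPM in control mice 1, 2 and 3, set against 679.9, 455 and 771 CPM in stress mice 1, 2 and 3. Egr1 was at 809.9, 649 and 732 CPM against 595, 518 and 411 CPM, and Ier2 at 345, 229 and 277 CPM against 175, 173 and 169 CPM. None passed the edgeR test, with -0.74 ± 0.15 for Ier2 (adjusted p = 0.121), -0.55 ± 0.17 for Egr1 (adjusted p = 0.214) and -0.59 ± 0.22 for Fos (adjusted p = 0.283). As many as 4 members had an unadjusted p under 0.05, beside 15.6% of all genes, and after adjustment edgeR called 0.106% of all genes lower. DESeq2 called Ier2 alone of the members and 1.35% of genes lower. The 3 members without overlap stand beside 10.3% of genes. Leaving out cluster 15 kept 1927 of 1961 control ECs (mouse 1), 2003 of 2107 (mouse 2) and 1433 of 1514 (mouse 3). Of the stress ECs it kept 1384 of 1560, 1501 of 1951 and 1926 of 2340 in the same order, a smaller share in each. Without that cluster edgeR called 0 members, beside 0.128% of genes called lower. On the TMM scale 2 members then lay lower in every stress mouse, instead of 3, beside 12.7% of genes. The part of this mix was not tested. Atf3 was higher in every stress mouse, as were 12.5% of genes, with 166, 153 and 173 CPM against 173, 196 and 202 CPM, and overlapped on the TMM scale (adjusted p = 0.430 in edgeR).

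In inflammatory myeloid cells and B cells edgeR called no member with all 6 mice. In inflammatory myeloid cells, Fos was at 1823, 1802 and 2014 CPM in control mice 1, 2 and 3, set against 995, 773 and 1135 CPM in stress mice 1, 2 and 3. Egr1 (1868, 2201 and 2836 CPM against 1251, 633 and 1030.1 CPM) and Ier2 (881, 530.4 and 1031 CPM against 251, 273 and 319 CPM) were also lower in every stress mouse. The adjusted p was 0.994 for each in edgeR, which called 0% of all genes lower there. At an unadjusted p under 0.05 there was 1 member, beside 3.96% of all genes, and DESeq2 also called 0 members. These 3 members stand beside 4.41% of genes, and TMM scaling, which shifted all genes by 0.12 (log2), left 2, beside 4.37% of genes, because Fos then overlapped. Nr4a1 was higher in every stress mouse on the CPM scale, 223, 318 and 288 CPM against 334, 457 and 660.3 CPM, as were 277 of 9219 genes, and overlapped on the TMM scale. Hepatocyte markers summed to 0 to 0.639 CPM there in control mice and 1.84 to 6.96 CPM in stress mice, and their part was not tested.

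In B cells, 457 cells of which control mouse 1 gave 20, Fos was at 721, 532 and 777 CPM in control mice 1, 2 and 3, set against 375, 257 and 182 CPM in stress mice 1, 2 and 3. Ier2 was at 313, 258 and 296 CPM against 148, 133 and 125 CPM, and Junb at 603, 929 and 784 CPM against 439, 417 and 432 CPM. Egr1 separated only narrowly, its lowest control mouse at 239.4 CPM and its highest stress mouse at 239.2. With Dusp1 this made 5 members lower in every stress mouse, beside 8.54% of genes. None was called by edgeR (-1.03 ± 0.24 for Ier2 (adjusted p = 0.101)), which called 0.173% of genes lower. At an unadjusted p under 0.05 there were 4 members, beside 11.1% of all genes. DESeq2 called 3 members (Fos, Junb and Ier2) and 0.554% of genes lower. Without control mouse 2 edgeR called Ier2 (adjusted p = 0.0437), beside 0.356% of genes called lower.

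Neutrophils and HSCs had fewer than 10 cells in some mouse and were not tested. In neutrophils, with 4 to 57 cells per mouse, 5 members (Fos, Junb, Egr1, Ier2, Nr4a1) lay lower in every stress mouse, beside 6.86% of the 1821 genes above the filter on low counts. Fos was at 1736, 840.0 and 1346 CPM in control mice 1, 2 and 3 against 326, 369.7 and 494 CPM in stress mice 1, 2 and 3. HSCs were the exception to the order seen for Fos elsewhere, with 940.2, 2039.9 and 2476 CPM against 1549, 1084 and 1636 CPM and the groups overlapping. Fosb in HSCs was higher in every stress mouse, 530.1, 919 and 843 CPM against 1327, 1119 and 1393 CPM, and so was Nr4a1, beside 7.76% of genes. The HSCs of control mice 2 and 3 were 6 and 8 cells, and their tumor markers summed to 2327 and 2204 CPM.

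Over the 8 tested cell types the members differed in how often they separated the groups. Fos, Egr1 and Ier2 had a negative log2 fold change in 8 of 8, lay lower in every stress mouse in 8 of 8 on the CPM scale, and were called in 4 of 8 each. On the TMM scale Fos overlapped in inflammatory myeloid cells. The log2 fold changes ranged from -1.65 to -0.59 for Fos, from -1.58 to -0.54 for Egr1 and from -1.35 to -0.74 for Ier2. Dusp1 (-0.99 to -0.38) and Junb (-0.76 to -0.01) were negative in 8 of 8 too, and separated in 4 and 3 cell types, with 0 calls in edgeR. Fosb (-0.38 to 0.22) separated in 0 of 8 on the CPM scale, and Atf3 (-0.63 to 0.29) and Nr4a1 (-0.83 to 1.01) separated in opposite directions in different cell types. Jun and Zfp36 had a negative log2 fold change in 7 of 8 each, separated in 2 and 1 of 8, and had 0 calls in edgeR. The cell types share their 6 mice and libraries, so these counts are not independent repeats. The 4 cell types with calls include M-MDSCs, which carried tumor markers at nearly the level of tumor cells. How many of all genes separate in 8 of 8 was not counted. Within single cell types 4.41% to 17.1% of genes lay lower in every stress mouse on the CPM scale.

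**Figure D2:**
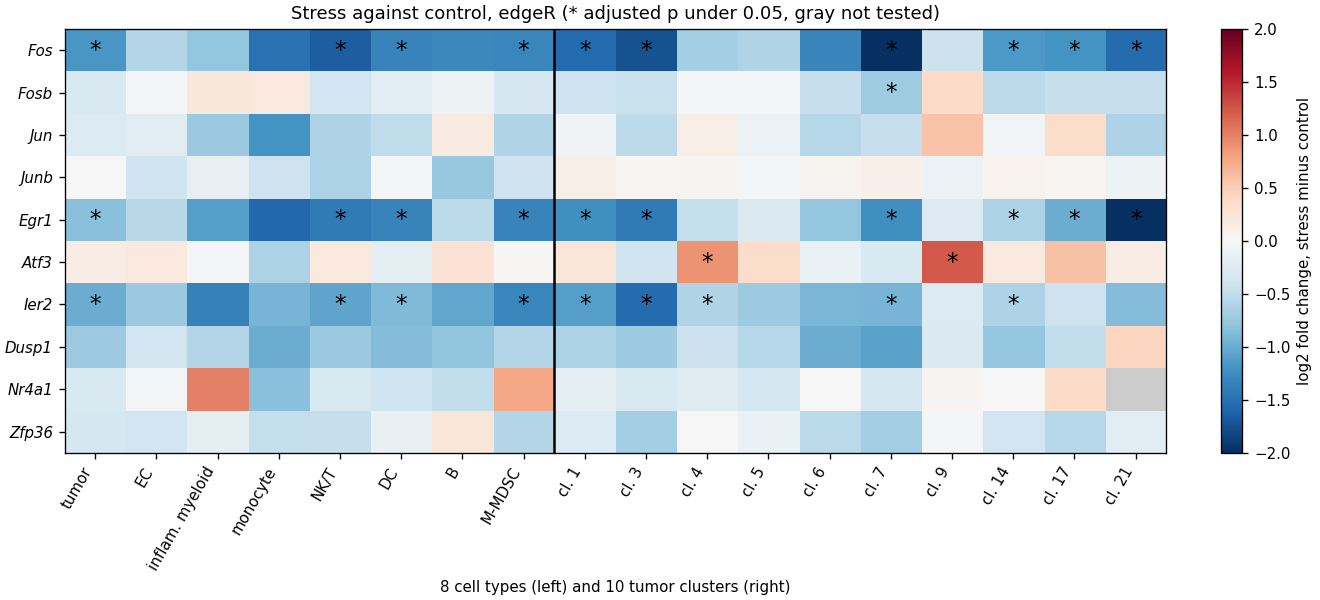
Log2 fold change, stress against control, of the 10 genes (rows) in 8 cell types and 10 tumor clusters (columns), with an asterisk where the edgeR adjusted p was under 0.05 and gray where a gene was not tested. The asterisks sit in the rows of Fos, Egr1 and Ier2, with the exceptions of Fosb in cluster 7 and the rises of Atf3 in clusters 4 and 9.

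Ratios within a mouse between a member that edgeR called in tumor cells and one that it did not do not depend on how libraries are scaled. They were chosen after the levels had been seen. In tumor cells the ratio of Fos to Fosb UMIs was 2.76, 1.96 and 2.61 in control mice 1, 2 and 3, falling to 1.46, 1.27 and 1.27 in stress mice 1, 2 and 3. The ratio of Egr1 to Atf3 was 5.75, 5.11 and 5.75 against 2.76, 2.41 and 3.24, and that of Ier2 to Junb 0.738, 0.867 and 0.746 against 0.367, 0.436 and 0.378. All 3 ratios separated the groups. Those of Fos to Fosb and of Egr1 to Atf3 were lower in every stress mouse in 7 of 8 tested cell types, B cells being the exception. Ier2 to Junb was lower in every stress mouse in 5 of 8 and overlapped in B cells, NK/T cells and monocytes. In monocytes Fos to Fosb stood at 4.08, 2.49 and 3.82 in control mice, with 1.42, 0.827 and 0.880 in stress mice. In ECs it stood at 3.82, 3.56 and 4.22 in control mice, with 2.53, 1.93 and 3.47 in stress mice. Jun to Junb, 2 genes that edgeR with all 6 mice called in none of these cell types, overlapped in all 8, with 0.452, 0.392 and 0.481 against 0.369, 0.452 and 0.309 in tumor cells.

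**Figure D3:**
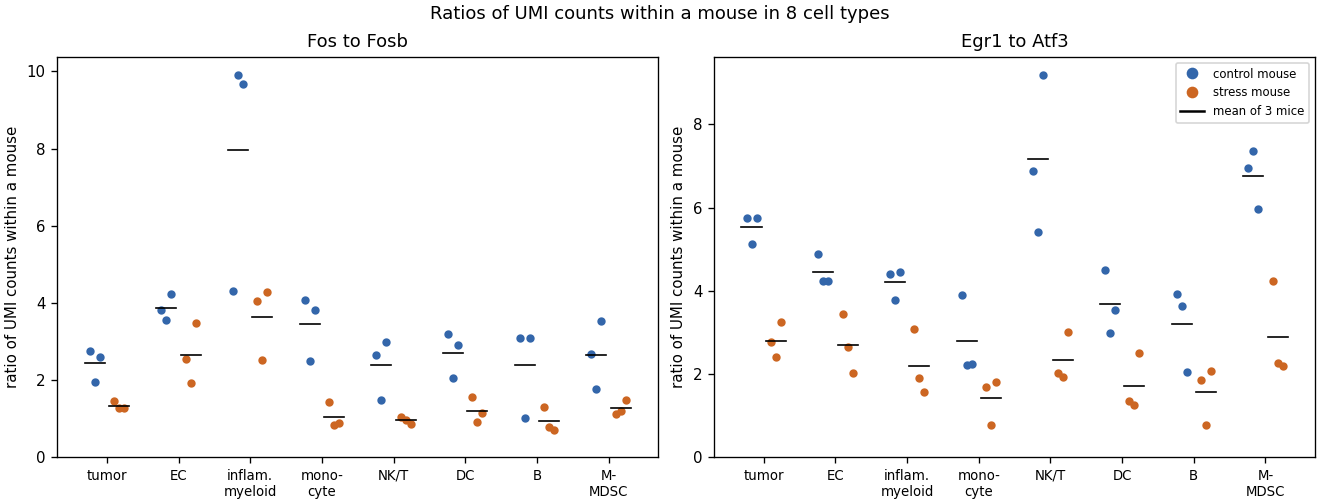
Ratio of Fos to Fosb UMIs and of Egr1 to Atf3 UMIs in 8 cell types, with 1 point per mouse and bars for the mean of 3 mice. In tumor cells the control mice sit between 1.96 and 2.76 for Fos to Fosb and the stress mice between 1.27 and 1.46.

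The share of cells with a Fos UMI was lower as well. It comes from the same UMIs as the level, so it is no second test. Nor can it tell fewer expressing cells from less Fos per cell. Each cell was thinned at random to 1000 UMIs so that deep and shallow cells count alike, and cells with fewer were left out (324 of 29638 tumor cells and 984 of 6307 inflammatory myeloid cells). A Fos UMI was then found in 49.5%, 40.5% and 46.9% of tumor cells in control mice 1, 2 and 3 and in 29.6%, 20.4% and 27.0% in stress mice 1, 2 and 3. Without thinning the shares were 91.6%, 87.6% and 90.3% against 82.4%, 75.5% and 77.2%. Monocytes showed the widest gap, 70.3%, 61.0% and 65.7% against 35.1%, 23.9% and 20.2% after thinning and 89.5%, 87.1% and 86.8% against 69.0%, 53.8% and 55.1% before. NK/T cells carried Fos least often, in 18.5%, 16.1% and 16.7% of control cells against 7.87%, 7.59% and 8.04%. In all 8 cell types every stress mouse lay below every control mouse. The Atf3 share of tumor cells overlapped, 16.0%, 15.6% and 14.6% against 15.9%, 17.9% and 17.1%. Of the 10 members, a thinned tumor cell carried 2.65 on average in control and 2.09 in stress mice. Free RNA in the droplets can add UMIs, and no cell type here is known to lack these genes, so no background share could be set.

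**Figure D4:**
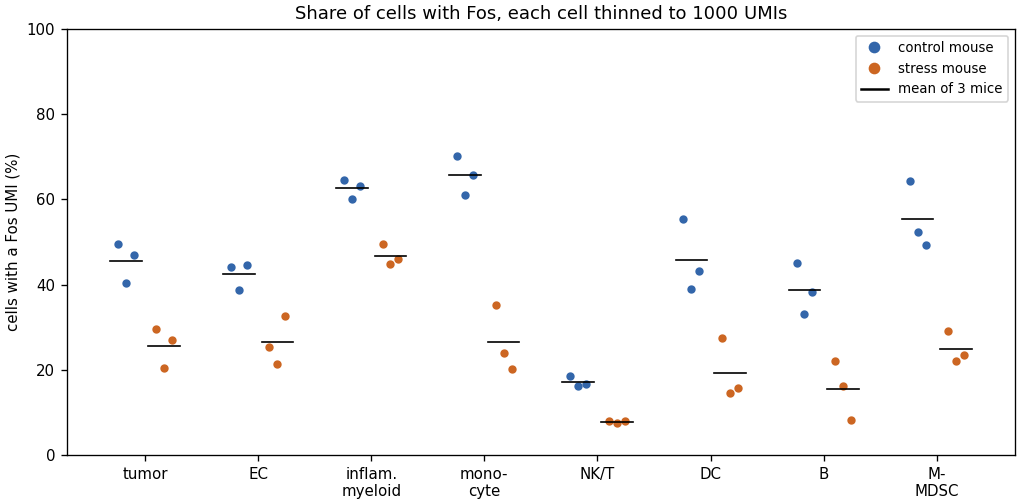
Percent of cells with a Fos UMI after thinning each cell to 1000 UMIs, in 8 cell types, with 1 point per mouse and bars for the mean of 3 mice. The stress mice lie below the control mice in each cell type, in monocytes at 20.2% to 35.1% against 61.0% to 70.3%.

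Tumor cells fell into 10 numbered clusters with at least 10 cells in every mouse, and the level of the 10 genes differed widely between them. Because the clusters were made from expression that includes these genes, the levels are a description. Cluster 5, with 3561 cells, had the highest summed level, 8316 ± 1596 CPM (SD, n = 6), against 3297 ± 713 in the other tumor cells. Within a mouse the ratio of the first to the second was 2.14 to 3.47, with a median of 2.44. By gene the median ratio was highest for Zfp36 (3.30), Fosb (3.14) and Fos (3.09), and lowest for Nr4a1 (1.44). Cluster 21 had the lowest level, 297 ± 108 CPM, and cluster 9 the next, 966 ± 144 CPM. A cell of cluster 5 thinned to 1000 UMIs carried 4.37 of the 10 members, and a tumor cell outside it 2.18. Leaving cluster 5 out, Fos, Egr1 and Ier2 were still the members called in tumor cells, beside 9.60% of genes called lower.

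**Figure D5:**
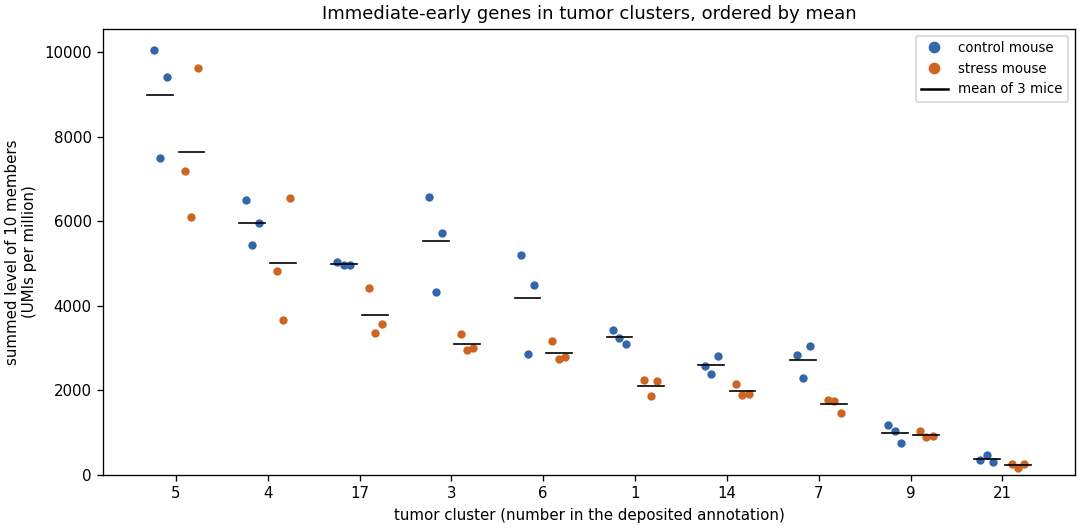
Summed level of the 10 genes in UMIs per 1000000 for each tumor cluster, ordered by mean, with 1 point per mouse and bars for the mean of 3 mice. Cluster 5 stands highest, with 10056, 7499 and 9407 CPM in control mice 1, 2 and 3 beside 7198, 6108 and 9629 in stress mice 1, 2 and 3, and cluster 21 lowest.

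Within clusters, Fos, Egr1 and Ier2 were called lower in stress mice by edgeR in clusters 1, 3, 7 and 14, and Fos and Egr1 in clusters 17 and 21. Cluster 7 showed the largest fall of Fos, from 664, 470.0 and 707 CPM in control mice 1, 2 and 3 to 198, 128 and 161 CPM in stress mice 1, 2 and 3 (log2 fold change -2.0 ± 0.22 (SE), adjusted p = 0.00316). It was also the one cluster in which Fosb was called, with 195, 189 and 212 CPM against 131, 112 and 143 CPM (log2 fold change -0.71 ± 0.13 (SE), adjusted p = 0.0255), a call that held in 1 of the 6 fits with a mouse left out, that without control mouse 2. In cluster 3, Ier2 was at 806, 549.6 and 641 CPM against 244, 261 and 197 CPM (log2 fold change -1.53 ± 0.18 (SE), adjusted p = 0.00913). In cluster 21, whose Egr1 was low in all mice, it was at 75.4, 83.2 and 68.6 CPM against 15.1, 15.1 and 25.2 CPM (log2 fold change -2.0 ± 0.28 (SE), adjusted p = 0.000349). The shares of all genes called lower were 7.41% in cluster 1, 1.55% in cluster 3, 1.70% in cluster 7, 3.34% in cluster 14, 0.356% in cluster 17 and 0.456% in cluster 21. Without control mouse 2 there were 5 calls in clusters 1, 3 and 14 and 6 in cluster 7, all of lower levels but that of Atf3 in cluster 1, where 18.9%, 9.60%, 12.2% and 12.1% of all genes were called in either direction. For the following fits the share of all genes called in either direction is given in brackets. Without stress mouse 3 in cluster 3 (0.0969%) 0 calls were left. The same held without control mouse 3 (1.91%) or stress mouse 2 (2.22%) in cluster 14. It also held without control mouse 1 (0.406%), control mouse 3 (0.301%) or stress mouse 2 (2.45%) in cluster 17. In cluster 7, 1 call, Fos, was left without stress mouse 2 (0.496%) and 2 calls, Fos and Ier2, without stress mouse 1 (1.06%) or 3 (0.594%). In cluster 14, 1 call was left without control mouse 1 (1.66%) or stress mouse 3 (2.67%). In cluster 17, 1 call was left without control mouse 2 (3.60%), stress mouse 1 (0.832%) or stress mouse 3 (1.41%). In cluster 21, Egr1 alone was left without control mouse 3 (0.467%), stress mouse 2 (0.822%) or stress mouse 3 (0.277%). In cluster 17, hepatocyte markers summed to 3.62, 0 and 2.20 CPM in control mice 1, 2 and 3 and to 95.1, 5.27 and 22.6 CPM in stress mice 1, 2 and 3, and red cell genes reached 4558 CPM in control mouse 2 against 0 to 7.38 CPM in the others. Tumor cell markers were higher in every stress mouse in clusters 1, 4 and 14. The part of these genes in the calls was not tested.

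In clusters 5 and 6 edgeR called no member with all 6 mice. In cluster 5, Fos was at 2243, 1688 and 2222 CPM in control mice 1, 2 and 3, set against 1423, 934 and 1821 CPM in stress mice 1, 2 and 3, with stress mouse 3 above control mouse 2 (log2 fold change -0.61 ± 0.27). Egr1 overlapped as well, 2133, 1965 and 2013 CPM against 1305, 1382 and 2483 CPM, and stress mouse 3 was the highest of all 6 mice. Ier2 was lower in every stress mouse, 1068, 775 and 901 CPM against 501, 491 and 737 CPM (adjusted p = 0.105 in edgeR). In cluster 6, Fos was at 1234, 582 and 1154 CPM against 541, 312 and 448 CPM (adjusted p = 0.0935 in edgeR). The shares of genes called lower were 0.927% in cluster 5 and 0.614% in cluster 6. At an unadjusted p under 0.05 there were 1 and 3 members, beside 22.4% and 19.9% of all genes, and without control mouse 2 edgeR called 2 members in cluster 5 (Ier2, Dusp1) and 6 in cluster 6, beside 8.08% and 6.79% of genes called lower.

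Atf3 was called higher in 2 clusters. In cluster 4 it was at 176, 187 and 181 CPM in control mice 1, 2 and 3, set against 317, 269 and 447 CPM in stress mice 1, 2 and 3 (log2 fold change 0.89 ± 0.17 (SE), adjusted p = 0.0126 in edgeR). In cluster 9 it was at 21.7, 21.2 and 15.1 CPM against 46.6, 46.3 and 44.4 CPM (log2 fold change 1.23 ± 0.16 (SE), adjusted p = 0.00339). The groups were clear of each other in both. In cluster 4 Ier2 fell at the same time, from 791, 651 and 699.7 CPM to 467, 403 and 577 CPM (adjusted p = 0.0304 in edgeR), while Fos and Egr1 overlapped through stress mouse 3 on the CPM scale, and Fos separated on the TMM scale. The shares of genes called higher were 7.17% in cluster 4 and 7.23% in cluster 9, and those called lower 6.84% and 1.94%. In cluster 9 edgeR without the replicate block called 0 members lower, and Fos, Egr1 and Ier2 overlapped. There 0 members lay lower in every stress mouse on either scale, beside 11.1% (CPM) and 12.4% (TMM) of genes. The Atf3 call in cluster 9 held whichever mouse was left out, and without stress mouse 3 Jun was called beside it, with 7.46% of all genes called. In cluster 4, 0 members were called without control mouse 3, where 4.45% of all genes were. Atf3 alone was called without control mouse 1, stress mouse 1 or stress mouse 2, beside 5.75%, 8.31% and 6.81% of all genes. Without control mouse 2 or stress mouse 3 there were 3 calls, beside 18.4% and 8.34% of all genes. In cluster 3 Atf3 went the other way, lower in every stress mouse on both scales. On the TMM scale it was at 230, 245 and 216 in control mice 1, 2 and 3 and at 163, 197 and 164 in stress mice 1, 2 and 3. It was called lower there by edgeR only with the replicate block, beside 4.92% of genes called lower. Junb overlapped in 10 of 10 clusters, with log2 fold changes from -0.12 to 0.12.

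Whether the members responded more in tumor cells than in ECs was tested on the difference of log2(CPM + 1) between the cell types within each mouse, with limma. No member passed, and of 13647 genes 0% did, with 1872 at an unadjusted p under 0.05. The estimate for Fos, stress against control in tumor cells minus that in ECs, was -0.51 ± 0.12 (SE, adjusted p = 0.228 in limma). Junb differed by 0.46 ± 0.11 in the other direction (adjusted p = 0.233). The same test of tumor cells against monocytes, added after the values had been seen, called 0.0669% of genes and 0 members. The tumor minus EC differences of Egr1 (-0.22 ± 0.22) and Ier2 (-0.20 ± 0.11) were smaller.

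Of 41 other early response genes (AP-1 and EGR relatives, feedback inhibitors, growth arrest genes and early NF-kB targets), 4 rose and 0 fell in tumor cells, all 41 being tested. They were Batf (0.267 ± 0.197 to 0.918 ± 0.175 CPM, log2 fold change 1.65, adjusted p = 0.0395), Ier5 (225 ± 1.30 to 347 ± 11.7 CPM, log2 fold change 0.48, adjusted p = 0.00971), Dusp5 (162 ± 10.1 to 245 ± 18.3 CPM, log2 fold change 0.46, adjusted p = 0.0195) and Spry2 (23.1 ± 1.73 to 33.3 ± 1.73 CPM, log2 fold change 0.39, adjusted p = 0.0280), all from edgeR. Batf encodes a partner of Jun proteins, and its level here was near 1 CPM. Dusp5 and Spry2 encode inhibitors of ERK signaling. The median log2 fold change of the list was 0.12, beside -0.01 over all genes, of which 12.0% were called higher. Summed, the list stood at 5935, 5527 and 5807 CPM in control mice 1, 2 and 3 and reached 6478, 5937 and 6657 CPM in stress mice 1, 2 and 3. On this scale the lowest stress mouse stood just above the highest control mouse, and 28.1% of single genes were higher in every stress mouse. On the TMM scale the groups overlapped, with 6288, 5655 and 6212 in the control mice and 6536, 5432 and 6224 in the stress mice. In DCs 3 rose and 0 fell, Nr4a3 (275 ± 11.8 to 527 ± 63.9 CPM, log2 fold change 1.05, adjusted p = 0.00401), Dusp5 (208 ± 31.8 to 364 ± 29.7 CPM, log2 fold change 0.91, adjusted p = 0.0110) and Btg1 (899 ± 29.5 to 1371 ± 201 CPM, log2 fold change 0.72, adjusted p = 0.0252), where 2.13% of genes were called higher. Nr4a3 is a nuclear receptor of the family of Nr4a1. In cluster 5, Ier5, Dusp5 and Spry2 rose and 0 fell, beside 1.13% of genes called higher. Ier5 there went from 283 ± 15 to 508 ± 60.9 CPM. In cluster 4, 6 rose and 0 fell, beside 7.17% of genes called higher and 6.84% lower. In cluster 1, 3 rose and Egr2, an EGR relative, fell (6.41 ± 0.172 to 3.67 ± 0.997 CPM, log2 fold change -0.84, adjusted p = 0.0294 in edgeR), beside 7.15% of genes called higher and 7.41% lower. In cluster 14, 0 rose and Nfkbia, an inhibitor of NF-kB, fell (500.4 ± 105 to 296 ± 51.5 CPM, log2 fold change -0.85, adjusted p = 0.0359 in edgeR), beside 3.38% and 3.34% of genes. In cluster 17, 3 of 40 tested rose (Klf10, Gadd45b and Tob1) and 0 fell, beside 1.65% of genes called higher. There the sum over the list was higher in every stress mouse on both scales, at 6306, 7354 and 7017 CPM in control mice 1, 2 and 3 and 9350.4, 8573 and 8031 CPM in stress mice 1, 2 and 3, whereas in clusters 4 and 5 it was so on the CPM scale and overlapped on the TMM scale.

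Heat shock genes, chaperones that are often induced together with the early response, included 4 of 12 that rose and 0 that fell in tumor cells by edgeR, beside 12.0% of genes called higher. These were Hspa1b, Hspa8, Hsp90aa1 and Dnajb1. Hspa1a and Hspa1b are near-identical copies that may share UMIs. Hspa1b went from 115 ± 31.7 to 232 ± 26.3 CPM (log2 fold change 0.87, adjusted p = 0.0282). The 12 genes summed to 8701, 9871 and 8228 CPM in control mice 1, 2 and 3 and reached 11245, 11468 and 10457 CPM in stress mice 1, 2 and 3, every stress mouse above every control mouse on the CPM scale. On the TMM scale the groups overlapped, with 9219, 10100 and 8802 in the control mice and 11345, 10492 and 9778 in the stress mice. In NK/T cells, DCs and M-MDSCs, where Fos, Egr1 and Ier2 were also called lower, edgeR called 3, 2 and 1 of the 12 heat shock genes higher and 0 lower, beside 0.536%, 2.13% and 0.307% of genes called higher. Hspa1b had a log2 fold change of 1.58 in NK/T cells (adjusted p = 0.00110 in edgeR) and 1.59 in M-MDSCs (adjusted p = 0.0130). In B cells 3 of 11 tested were called higher, beside 0.311% of genes. The sum over the list was higher in every stress mouse on both scales in NK/T cells, M-MDSCs and monocytes, on the TMM scale also in DCs and B cells, and overlapped on both in ECs and inflammatory myeloid cells. Among tumor clusters it was higher on both scales in clusters 3, 4, 5 and 17. Their part in the differences of the members was not tested. Of 20 kinases and factors that act upstream of these promoters, Egfr rose (from 0.880 ± 0.123 to 2.48 ± 0.558 CPM) and 3 fell, Mapk14 (53.1 ± 5.13 to 44.7 ± 1.52 CPM, log2 fold change -0.39, adjusted p = 0.0318), Mapk8 (63.4 ± 3.74 to 56.2 ± 4.57 CPM, log2 fold change -0.32, adjusted p = 0.0354) and Map2k2 (111 ± 3.67 to 98.0 ± 7.34 CPM, log2 fold change -0.33, adjusted p = 0.0252). These 1 and 3 of 20 stand beside 12.0% of genes called higher and 9.46% called lower. Mapk8 overlapped between the groups on the CPM scale. Srf, Elk1 and Creb1, whose products are known to act on promoters of immediate-early genes, were not called in tumor cells.

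The genes whose pattern over tumor clusters was most like that of the members were found by Pearson correlation with their mean log2(CPM + 1), over 60 sums (10 clusters in each of 6 mice) from which each mouse's own mean had been subtracted. The points share libraries and clusters, so the correlations are descriptive. The leading genes outside the list included Csrnp1 (0.974), Klf4 (0.960), Plk3 (0.959), Klf6 (0.959), Tcim (0.957), Ifrd1 (0.957), Sertad1 (0.956), Sgk1 (0.956) and Trib1 (0.953). Klf4 and Klf6 encode Krüppel-like transcription factors. Klf6 was at 1572 CPM in cluster 5 and 784 CPM in the other tumor cells. Each member was compared in the same way with the mean of the other members, and the correlation ran from 0.840 for Nr4a1 to 0.990 for Fosb, values of the kind on which the list was selected.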

How the data were processed

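The authors sequenced dissociated liver tumors of 3 control and 3 stress mice with the 10x Genomics Chromium system and deposited the UMI counts of each cell without normalization. Per the file headers the matrices came from Cell Ranger 9.0.0 (control) and 7.1.0 (stress), and the submitters' processing notes name mm10 and Seurat. The gene annotation used for counting is not given in the sources used here. Per the study's methods, doublets had been removed with Scrublet, and cells with over 20% mitochondrial reads or under 200 genes excluded. Cells, clusters and cell types were kept as annotated, and no doublet caller was run again.

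UMI counts were summed per mouse over each cell type and tumor cluster with at least 10 cells in every mouse and tested over all genes with edgeR 4.0.16 (R 4.3.3; filterByExpr, TMM, quasi-likelihood test, Benjamini-Hochberg adjustment, threshold 0.05). Within-mouse differences of log2(CPM + 1) were tested with limma 3.58.1. The comparison of stress with control within tumor cells and within ECs was run on simulated data. At a log2 change of 0.5, 4 of 50 changed genes were recovered in tumor cells and 1 of 50 in ECs. At a change of 1 these were 28 and 32 of 50, and at 2 they were 45 and 46. Replicate numbers come from the titles, which do not say that they mark a shared litter or day. In monocytes the deviations from the group means correlated over genes between same-numbered mice at 0.476, 0.422 and 0.146 for numbers 1, 2 and 3, so the block is given beside that result. Stress mouse 3 correlated better there with control mouse 2 (0.187) than with control mouse 3. Shares used cells thinned to 1000 UMIs. Python 3.11.15 with numpy 2.4.6, pandas 2.3.3, scipy 1.17.1 and matplotlib 3.10.9 was used for the rest. Gene structure came from GENCODE M21, promoters from RefSeq (GRCm38.p6). Alternatives were RLE scaling, DESeq2 1.42.0, no filter on low counts, the replicate number as a block, each mouse left out, equal weight per cell (limma on log2 of mean counts per 10000 plus 0.1), 2000 UMIs per cell, a pseudocount of 5, tumor cells without cluster 5 and ECs without cluster 15. DCs of cluster 20 only, TMM-scaled CPM (also for the sums of gene lists) and the comparisons of monocytes with inflammatory myeloid or tumor cells were added later, with the data in view.

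The members and lists were chosen with earlier results of these data known. All 10 members are named. Of the other response genes, up to 4 per direction with the largest change past the threshold are named where a comparison is described, and the 10 genes most like the members were taken by correlation over tumor clusters, of which a single gene is not reported here. Heat shock and upstream genes were named after their values were seen. With 3 mice per group, p-values measure the spread between single libraries. Median depth ranged from 7166 to 20478 UMIs per cell between mice.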

Additional observations from a re-analysis of the deposited data

Results flagged for a closer look

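With all 6 mice and the filter on low counts, edgeR without the replicate block called Atf3 and Nr4a1 in no tested cell type (DESeq2 and the block called Nr4a1 lower in monocytes), but on the CPM scale every stress mouse lay above every control mouse in some cell types and below in monocytes. Atf3 was higher in stress mice in tumor cells (log2 fold change 0.14) and ECs (0.19) and lower in monocytes (-0.63). The difference between tumor cells and monocytes within a mouse was 0.90 ± 0.28 (SE, adjusted p = 0.438 over all genes in limma), so it did not pass the threshold. The difference between ECs and monocytes was not tested, and Atf3 in ECs overlapped between the groups after TMM scaling.

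Nr4a1 was higher in stress mice in inflammatory myeloid cells (1.01) and M-MDSCs (0.78) and lower in monocytes (-0.83). The difference between inflammatory myeloid cells and monocytes was 1.74 ± 0.41 (SE, adjusted p = 0.999 in limma, and 0.251 with the replicate block). Nr4a1 in inflammatory myeloid cells overlapped after TMM scaling, and M-MDSCs were not tested against monocytes. These cell type pairs were chosen after their values had been seen.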

How the results depend on the processing

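Counts of called members moved with the processing as follows. With the replicate number as a block they were 5 in monocytes, 5 in NK/T cells and 1 in B cells, where 1.67%, 2.05% and 0.932% of all genes were called, and 6, 4, 2, 2 and 3 in tumor clusters 3, 4, 5, 6 and 9, where 9.50%, 16.8%, 5.45%, 1.65% and 14.97% were. With it 1 member more was called in tumor cells, DCs and clusters 1, 7 and 21, where 27.0%, 6.28%, 18.9%, 6.09% and 3.27% of all genes were. Outside monocytes at least 1 pair of same-numbered mice had a correlation of deviations under 0.1 in each cell type and cluster. In tumor cells and in monocytes stress mouse 3 correlated best with control mouse 2 (0.277 and 0.187). DESeq2 gave 1 call in ECs, 5 in monocytes, 5 in NK/T cells, 3 in B cells and 4 in M-MDSCs. It called 2.46%, 1.16%, 3.01%, 1.69% and 1.31% of all genes there. Without the filter on low counts there were 4 in monocytes, 6 in NK/T cells, 4 in DCs, 2 in B cells and 6 in M-MDSCs, the last with Nr4a1 called higher. Of all genes 0.933%, 2.21%, 3.79%, 1.73% and 1.65% were called there. With equal weight per cell there were 1 in tumor cells, 5 in NK/T cells, 2 in DCs and 0 in M-MDSCs, where 10.5%, 2.22%, 0.0949% and 0.0424% of all genes were called. In DCs of cluster 20 only there were 0, where 0.313% of all genes were called. TMM-scaled CPM left 5 members lower in every stress mouse in tumor cells, 2 in cluster 4 and 3 in cluster 21, beside 20.3%, 19.1% and 8.59% of genes on that scale.

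Leaving out 1 mouse at a time gave 1 to 5 called members in tumor cells, 1 to 4 in DCs and 0 to 1 in B cells, where 6.14% to 29.9%, 0.668% to 3.66% and 0.0894% to 0.608% of all genes were called. In tumor clusters it gave 3 to 5 (cluster 1), 0 to 5 (3), 0 to 3 (4), 0 to 2 (5), 0 to 6 (6), 1 to 6 (7), 1 to 2 (9), 0 to 5 (14), 0 to 1 (17) and 1 to 2 (21). The share of all genes called was 4.91% to 18.9% in cluster 1, 0.0969% to 9.60% in cluster 3 and 4.45% to 18.4% in cluster 4. It was 0% to 14.5% in cluster 5, 0% to 12.3% in cluster 6, 0.496% to 12.1% in cluster 7 and 3.38% to 22.7% in cluster 9. In clusters 14, 17 and 21 it was 1.66% to 12.2%, 0.301% to 3.60% and 0.277% to 3.37%. These fits had 1 mouse fewer, and the cause of the moves was not tested.

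The sign of a log2 fold change turned only for members that were not called. With a mouse left out the ranges that crossed 0 in the cell types were -0.15 to 0.13 (Junb) in tumor cells, -0.12 to 0.049 (Fosb) and -0.23 to 0.21 (Nr4a1) in ECs, -0.53 to 0.032 (Junb) and -0.69 to 0.21 (Atf3) in inflammatory myeloid cells, -0.22 to 0.10 (Junb), -0.46 to 0.058 (Atf3) and -0.39 to 0.024 (Zfp36) in DCs, -0.23 to 0.20 (Fosb) and -0.36 to 0.50 (Jun) in B cells, and -0.27 to 0.19 (Atf3) in M-MDSCs. In the tumor clusters 25 of 100 ranges crossed 0, among them those of Junb in 8 of 10 clusters, Fosb in cluster 4 (-0.37 to 0.24) and Jun in cluster 17 (-0.049 to 0.63). With the replicate block Junb in tumor cells turned to 0.00080 and Atf3 in M-MDSCs to -0.0067. With equal weight per cell Junb in tumor cells turned to 0.11, Fosb in ECs to 0.28, Atf3 in ECs to -0.0020 and Fosb in B cells to 0.23. Without cluster 5 Junb in tumor cells stood at 0.027, without cluster 15 Fosb and Nr4a1 in ECs at 0.021 and 0.0028, and without the filter Junb in DCs at 0.0067. Over single members in the cell types and in the differences between cell types, tumor clusters not included, 463 of 504 values with a mouse left out and 376 of 436 under other settings kept their sign and their side of the threshold.

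Precision is limited by 3 mice per group and by 15 to 20 cells in the smallest samples of M-MDSCs and B cells. Summing UMIs gives deep cells more weight than shallow ones. Program version and group cannot be told apart.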
